A study of Sus scrofa with 6 samples.

Results

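RGS5 (regulator of G protein signaling 5) stood out as the gene with the largest mean increase in porcine IPEC-1 cells grown in air-liquid interface (ALI) culture compared with submerged culture (SMC). It was chosen by this difference, so its ALI and SMC values are a description here and carry no test. The array annotation pairs RGS5 (Entrez gene 397640) with 1 probe set out of 23999 probe sets tested. RGS5 is 1 of 6765 genes with a symbol of their own. The data come from 6 GeneChip Porcine Genome Arrays hybridized with total RNA of IPEC-1 cells, an untransformed epithelial line from the small intestine of newborn piglets. Of these, 3 arrays hold ALI and 3 hold SMC cultures, with 1 array per culture type at each of passages P109, P111 and P113. Both culture types grew on porous membranes in medium with insulin, transferrin, selenium and EGF, and FBS was withdrawn stepwise before a long FBS-free period. ALI cells had a thin film of liquid on the apical side, and SMC cells had a column of medium there. The arrays of a group thus stand for 3 passages of a single cell line, and every p-value below rests on the spread between these cultures. The limma fits draw this spread in part from all probe sets. The cell line and the jejunum are given in the labels, while their free-text description speaks of a liver sample and was not used. The values are log2 intensities, so that a difference of 1 is a doubling, and the 3 quartiles of the 6 arrays lie close together, at 4.52 to 4.62, 6.34 to 6.39 and 8.27 to 8.37.

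RGS proteins switch off signals from G protein coupled receptors. They bind the active alpha subunit of a heterotrimeric G protein and speed up its hydrolysis of GTP. RGS5 is a small member of the R4 subfamily, which acts on alpha subunits of the Gi and Gq classes, and it is best known as a marker of pericytes and vascular smooth muscle cells. The proteins of RGS4, RGS5 and RGS16 carry a cysteine that becomes N-terminal once the initial methionine is removed. This cysteine can be oxidized when oxygen is present, which marks the proteins for breakdown by the arginine N-degron pathway. The arrays measure mRNA, so the amount of RGS5 protein was not analysed here.

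In ALI cells, RGS5 had log2 values of 9.29, 9.41 and 9.20 at passages P109, P111 and P113. In SMC cells, the values were 5.23, 5.11 and 5.72. The groups did not overlap, and the lowest ALI array was 3.48 above the highest SMC array. The group means were 9.30 ± 0.104 in ALI and 5.35 ± 0.325 in SMC cells (SD, n = 3 each), a difference of 3.95 or 15.4-fold on the linear scale. On each ALI array, 84.5% to 87.4% of all probe sets were dimmer than RGS5. In SMC cells the same probe set lay below the array median, with 33.4% to 41.5% of probe sets dimmer, but above the lowest 25% of the values on every array. In RNA of whole cultures, more RGS5 mRNA per cell and more cells that carry it cannot be told apart.

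**Figure D1:**
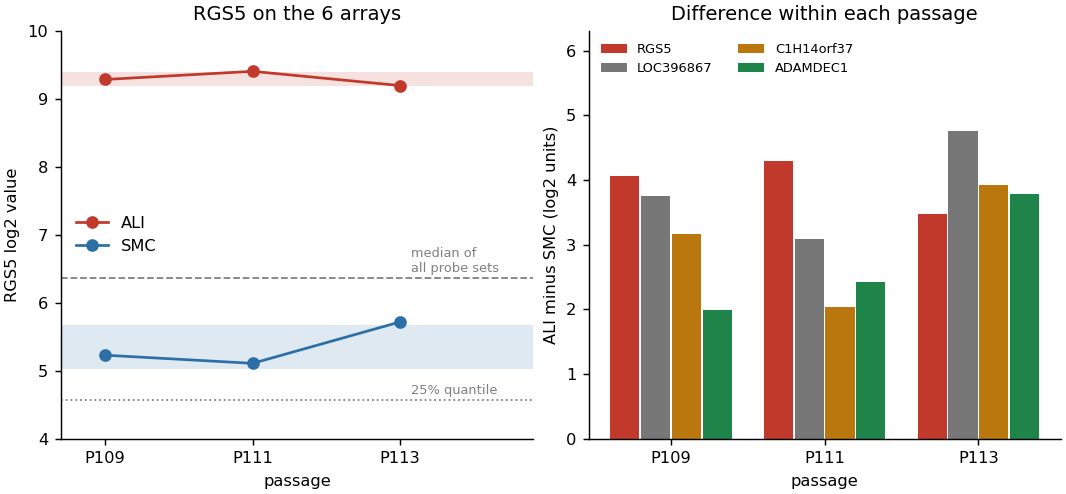
Left, log2 value of RGS5 on each array (y axis) by passage (x axis), with shaded bands at the group mean ± SD (n = 3), a dashed line at the mean of the array medians and a dotted line at the mean of their 25% quantiles. The 3 ALI arrays sit at 9.20 to 9.41 and the 3 SMC arrays at 5.11 to 5.72. Right, ALI minus SMC difference within each passage (log2 units, 1 array per culture type and passage) for RGS5 and the 3 named genes that exceeded it at passage P113. RGS5 has the tallest bar at passages P109 and P111 and the shortest of the 4 at passage P113.

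RGS5 varied little among the ALI cultures and more among the SMC cultures. Its SD over the ALI arrays, 0.104, was below the median of 0.149 over all probe sets, and 30.5% of probe sets had a smaller one. Over the SMC arrays its SD was 0.325 against a median of 0.135, and 92.5% of probe sets had a smaller one. Most of that spread came from the SMC array at passage P113, the highest of its group. Within passages P109, P111 and P113 the ALI minus SMC difference of RGS5 was 4.06, 4.30 and 3.48. The smallest difference thus fell at the passage where the SMC value was highest and the ALI value lowest. Passage was not used to choose RGS5, so its course over passages could be tested. In a limma fit with culture type and passage, RGS5 had a slope of 0.051 ± 0.048 log2 units per passage (SE, 95% confidence interval -0.06 to 0.16, adjusted p = 0.682). This slope turned to -0.029 when the SMC array at passage P113 was left out. The change of the ALI minus SMC difference with passage was -0.146 ± 0.089 per passage (95% confidence interval -0.36 to 0.07, limma adjusted p = 1), so that a shift of the difference in either direction was not detectable with 3 passages. By the limma adjusted p, 0 of 23999 probe sets (0.00%) passed for the slope and 0 (0.00%) for the change of the difference with passage, while 3197 and 530 had an unadjusted p under 0.05.

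By the group means, RGS5 ranked 1 among the 23999 probe sets and among the 6765 genes. The same rank held within passages P109 and P111 and for the distance between the lowest ALI and the highest SMC array. At passage P113 it ranked 4, behind LOC396867, C1H14orf37 and ADAMDEC1. Just behind RGS5 stood LOC396867, with log2 values of 6.84, 6.26 and 8.25 in ALI and 3.08, 3.16 and 3.49 in SMC cells. Its difference was 3.87 ± 0.43 (SE, limma adjusted p = 0.00597), close to that of RGS5, and its SMC values were among the lowest 25% on every SMC array. Leaving out the ALI array of passage P109 or P111, or the SMC array of passage P111, put RGS5 at rank 2, with LOC396867 then at 4.01, 4.30 and 3.83 against 3.95, 3.89 and 3.83 for RGS5. Which of these genes ranked first thus depended on single arrays. The 2 probe sets that came next, at 3.07 and 3.05, have no gene symbol in the annotation.

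The genes that followed by the size of the difference were C1H14orf37 at 3.04, ADAMDEC1, a secreted metalloprotease-like protein, at 2.73, BLNK, an adaptor of B cell receptor signaling, at 2.43 and SH3BGR at 2.27. C1H14orf37 measured 7.26, 6.23 and 8.41 in ALI and 4.10, 4.19 and 4.50 in SMC cells. ADAMDEC1 measured 6.94, 6.75 and 8.41 in ALI and 4.95, 4.33 and 4.63 in SMC cells. Like LOC396867, both were highest in ALI cells at passage P113, the passage at which RGS5 was lowest. BLNK also had its highest ALI value there, 7.38, against 5.87 and 5.80 at passages P109 and P111. SH3BGR had its lowest, 7.79, against 8.57 and 9.15. All 4 were called higher, with limma adjusted p of 0.0189, 0.0166, 0.0398 and 0.0103 in this order. Without the ALI array of passage P109 these values rose to 0.0883, 0.0542, 0.0982 and 0.0611, and without the SMC array of passage P111 to 0.105, 0.0994, 0.17 and 0.0663. C1H14orf37 and BLNK also lost the call without the SMC array of passage P109 (0.0592 and 0.106), and BLNK without the ALI array of passage P111 (0.0534). By the methods' t-test, which takes the spread of each probe set alone, the adjusted p of LOC396867 and these 4 genes was 0.201 to 0.312.

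**Figure D2:**
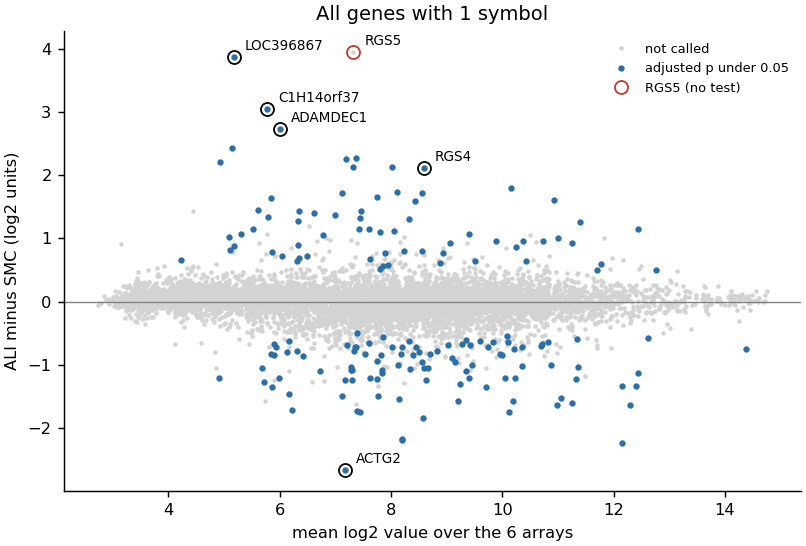
ALI minus SMC difference of the group means (y axis, log2 units) against the mean log2 value over the 6 arrays (x axis) for all 6765 genes with 1 symbol, each by its brightest probe set. Blue points passed the limma adjusted p of 0.05 and grey points did not. RGS5, ringed in red and given no test, lies highest at 3.95, LOC396867 follows at 3.87, RGS4 lies at 2.11, and ACTG2 lies lowest at -2.66.

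Of the 6764 genes other than RGS5, 68 (1.01%) were called higher and 102 (1.51%) lower in ALI than in SMC cells, and the median difference over all genes was 0.01. With passage as a block, which pairs the 2 arrays of a passage, these counts were 151 and 254. In 743 genes (11.0%) all ALI arrays lay above all SMC arrays. An exact permutation test of a single gene over 3 against 3 arrays cannot give a two-sided p below 0.1, so calls rest on the fit across all probe sets.

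Of the other RGS family genes, 20 were looked for and 7 had a probe set of their own symbol. RGS4, an R4 member that also acts on Gi and Gq alpha subunits, was the only one called, 1 of 7 beside the 1.01% of all other genes. It measured 9.73, 9.89 and 9.34 in ALI and 8.41, 7.05 and 7.15 in SMC cells at passages P109, P111 and P113. The groups did not overlap, and the SMC array of passage P109 stood well above the other SMC arrays. RGS4 rose by 2.11 ± 0.34 (SE, 95% confidence interval 1.34 to 2.89, n = 3 each, limma adjusted p = 0.0228), which is 4.33-fold and rank 11 of the 6765 genes. Within the passages its difference was 1.32, 2.83 and 2.18. RGS4 and RGS5 both had their largest difference at passage P111, while the smallest fell at passage P109 for RGS4 and at passage P113 for RGS5. The call of RGS4 depended on single arrays: the adjusted p was 0.101 and 0.0655 without the ALI arrays of passages P109 and P111, and 0.111 and 0.0589 without the SMC arrays of passages P111 and P113. It was 0.00289 with passage as a block and 0.272 by the methods' t-test after Benjamini-Hochberg adjustment.

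**Figure D3:**
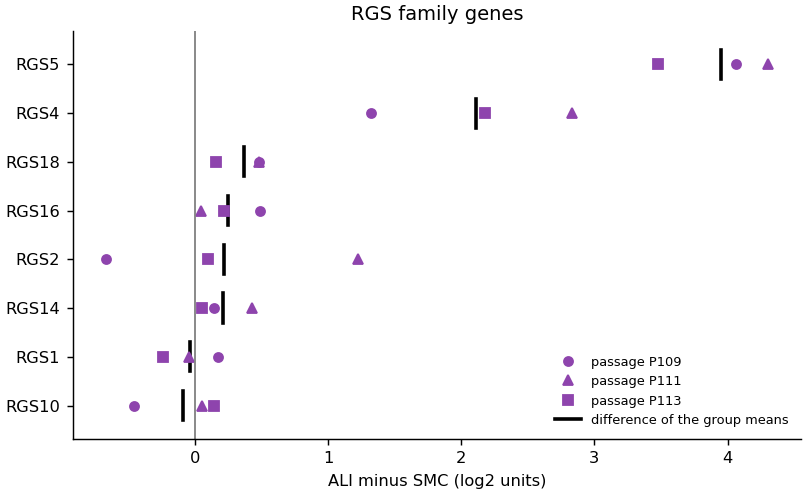
ALI minus SMC difference (x axis, log2 units) of the 8 measured RGS family genes (y axis), ordered by size. Symbols show the difference within each passage (1 array per culture type), and black bars show the difference of the group means. RGS5 and RGS4 lie above 1 at all 3 passages, and the passages of RGS2 range from -0.67 to 1.22.

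The other 6 measured members did not pass the test. RGS16, the third R4 member whose protein is a substrate of the N-degron pathway, measured 7.37, 7.25 and 7.09 in ALI and 6.88, 7.21 and 6.87 in SMC cells. Its difference was 0.25 ± 0.13 (SE, 95% confidence interval -0.05 to 0.55, limma adjusted p = 0.44), and its second probe set gave -0.12. The interval of RGS16 thus lies wholly below that of RGS4. A further probe set, annotated with the symbol RGS16 more than once, was left out with those of several symbols. RGS18, known from platelets and blood cell lineages, had a difference of 0.37 ± 0.15 (SE, limma adjusted p = 0.307), but it lay in the lowest 25% of the values on all 6 arrays. RGS14, which has a second G protein binding motif besides its RGS domain, differed by 0.21 ± 0.11 (SE, limma adjusted p = 0.459). RGS1, known from lymphocytes, differed by -0.04 ± 0.14, and RGS10, in the lowest 25% on every array, by -0.09 ± 0.14 (SE, limma adjusted p = 0.929 and 0.824). The median over the 7 genes was 0.22 beside 0.01 over all genes.

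RGS2, an R4 member with a preference for Gq, varied most among the family by its brightest probe set. It measured 8.67, 8.68 and 6.75 in ALI and 9.34, 7.46 and 6.65 in SMC cells. Its values were lowest at passage P113 in both culture types, and the groups overlapped. The ALI minus SMC difference was 0.22 ± 0.72 (SE, 95% confidence interval -1.43 to 1.87, limma adjusted p = 0.929). This interval overlaps that of RGS4, 1.34 to 2.89. In the fit with passage, RGS2 had a slope of -0.576 per passage (unadjusted p = 0.000207, limma adjusted p = 0.114), against 0.051 for RGS5 and -0.207 for RGS4 (limma adjusted p = 0.307). None of the 3 slopes passed the adjusted threshold. Dimmer probe sets of RGS2 gave ALI minus SMC differences of 0.02 ± 0.13 and 0.18 ± 0.12 (SE). Their slopes were -0.031 and -0.028 per passage (limma adjusted p = 0.781 and 0.790), so they did not share the slope of the brightest probe set.

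The measured genes through which RGS proteins act did not show differences of this size. Among 64 measured genes in 7 lists of G protein subunits, receptors, effectors and regulators, limma called 0 higher and 0 lower by the adjusted p. At an unadjusted p under 0.05, 3 of the 64 were higher and 7 lower, beside 7.08% and 8.91% of all genes other than RGS5, and the methods' t-test called 0 after adjustment. Of the Gi and Gq alpha subunits, the direct partners of RGS5, 3 of 12 were measured. These were GNAI1, GNAI2 and GNAZ, all of the Gi class, so no Gq alpha subunit was analysed here. GNAI1, the alpha subunit of Gi1, measured 9.83, 9.78 and 9.66 in ALI and 9.98, 9.91 and 10.18 in SMC cells. Its groups did not overlap by a gap of 0.08, and the difference was -0.26 ± 0.11 (SE, limma adjusted p = 0.338). GNAI2, the alpha subunit of Gi2, was at 9.16 to 9.24 in ALI and 9.02 to 9.03 in SMC cells, with a difference of 0.16 ± 0.09 (SE, limma adjusted p = 0.47). The single measured alpha subunit of the Gs and G12 classes, GNAS, differed by 0.41 ± 0.15 (SE, limma adjusted p = 0.258).

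A pair of genes in these lists passed with passage as a block but not without it over all 6 arrays. With the block, 2 of the 64 genes were called lower and 0 higher. Of the 6764 genes other than RGS5, 254 were called lower and 151 higher with it. GRK5, a kinase with an RGS-like domain that phosphorylates active receptors, measured 7.30, 6.92 and 7.89 in ALI and 8.11, 8.23 and 8.81 in SMC cells. Its difference was -1.01 ± 0.26 (SE), with a limma adjusted p of 0.116 without and 0.00415 with the block. GRK5 also passed without the ALI array of passage P113 (0.042). GNG12, a gamma subunit, measured 6.57, 7.02 and 6.19 in ALI and 7.36, 7.40 and 7.12 in SMC cells. The difference of GNG12 was -0.70 ± 0.20 (SE), with a limma adjusted p of 0.148 without and 0.0209 with the block, and 0.0469 without the ALI array of passage P111. The members of the same lists farthest from 0 in the other direction were GRK3, another receptor kinase, at 0.20 ± 0.15, and GNG11, another gamma subunit, at 0.25 ± 0.11 (SE, limma adjusted p = 0.6 and 0.368). GRK5 and GNG12 were lower in ALI cells, which is the opposite direction to RGS5 and RGS4.

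Of 63 receptors that couple to Gi or Gq, 29 were measured, and 14 of them lay in the lowest 25% of the values on all 6 arrays. The median difference over the 29 was 0.06. The farthest from 0 was F2RL2, a protease-activated receptor, at -0.43 ± 0.17 (SE, limma adjusted p = 0.311). Next came OPRM1, an opioid receptor, at 0.36 ± 0.15, and S1PR1, a receptor of sphingosine 1-phosphate, at -0.36 ± 0.15 (SE, limma adjusted p = 0.327 and 0.326). Among 11 measured effectors, the kinases ROCK2 at -0.53 ± 0.23 and PRKCA at 0.32 ± 0.13 were farthest from 0 (SE, limma adjusted p = 0.337 and 0.299). The listed phospholipase C beta and adenylyl cyclase genes were not among the measured effectors and were not analysed here. The guanine nucleotide exchange factors RIC8A and RIC8B, which act as chaperones of alpha subunits, differed by 0.19 ± 0.14 and 0.11 ± 0.29 (SE, limma adjusted p = 0.596 and 0.909).

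ALI culture leaves only a thin film of liquid over the cells, and oxygen bears on RGS4, RGS5 and RGS16 at the protein level, so the genes of the arginine N-degron pathway and of oxygen sensing were described beside RGS5. Of 12 N-degron genes, 5 were measured. By their brightest probe sets, limma called 0 in either direction, with 0 also at an unadjusted p under 0.05 and by the methods' t-test. The 2 farthest from 0 by these probe sets were NTAN1, an amidase of N-terminal asparagine, at 0.20 ± 0.12, and METAP2, a methionine aminopeptidase, at 0.13 ± 0.15 (SE, limma adjusted p = 0.491 and 0.741). METAP1, another methionine aminopeptidase, gave -0.07 ± 0.19 by its brightest probe set (SE, limma adjusted p = 0.908). A dimmer METAP1 probe set gave -0.40 ± 0.15 (SE, limma unadjusted p = 0.0258, adjusted p = 0.262). ADO, which oxidizes the N-terminal cysteine, ATE1, which adds the arginine, and the ubiquitin ligases UBR1, UBR2 and UBR4 had no probe set with their symbol and were not analysed here. Of 10 genes for prolyl hydroxylases and HIF subunits, 6 were measured, and by their brightest probe sets 1 was called higher and 0 lower, beside 1.01% and 1.51% of all other genes. ARNT2, a partner subunit of HIF alpha proteins, measured 5.75, 5.53 and 5.58 in ALI and 4.78, 4.87 and 4.56 in SMC cells. It rose by 0.88 ± 0.12 (SE, n = 3 each, limma adjusted p = 0.0136), with no overlap of the groups, but its adjusted p was 0.0713 without the ALI array of passage P109 and 0.175 by the methods' t-test. EGLN1, the main prolyl hydroxylase of HIF alpha, differed by -0.68 ± 0.23, and HIF1A by -0.15 ± 0.12 (SE, limma adjusted p = 0.219 and 0.626). A second, dimmer HIF1A probe set measured 5.03, 4.70 and 4.52 in ALI and 6.04, 5.65 and 6.75 in SMC cells and was called lower, with a difference of -1.39 ± 0.26 (SE, limma adjusted p = 0.0407). It lost the call without the ALI array of passage P109 (0.0983), P111 (0.102) or P113 (0.0848) and without the SMC array of passage P109 (0.0954) or P111 (0.0538). Still dimmer HIF1A probe sets gave -0.39 ± 0.18 and -0.02 ± 0.12 (SE, limma adjusted p = 0.366 and 0.972). The probe sets of HIF1A thus disagree in size. The second probe set of EGLN1 gave -0.63 ± 0.30 (SE), with a limma adjusted p of 0.384 without and 0.0813 with the block. Its dimmest probe set gave -0.50 ± 0.17 (SE), with a limma adjusted p of 0.234 without and 0.0493 with the block.

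**Figure D4:**
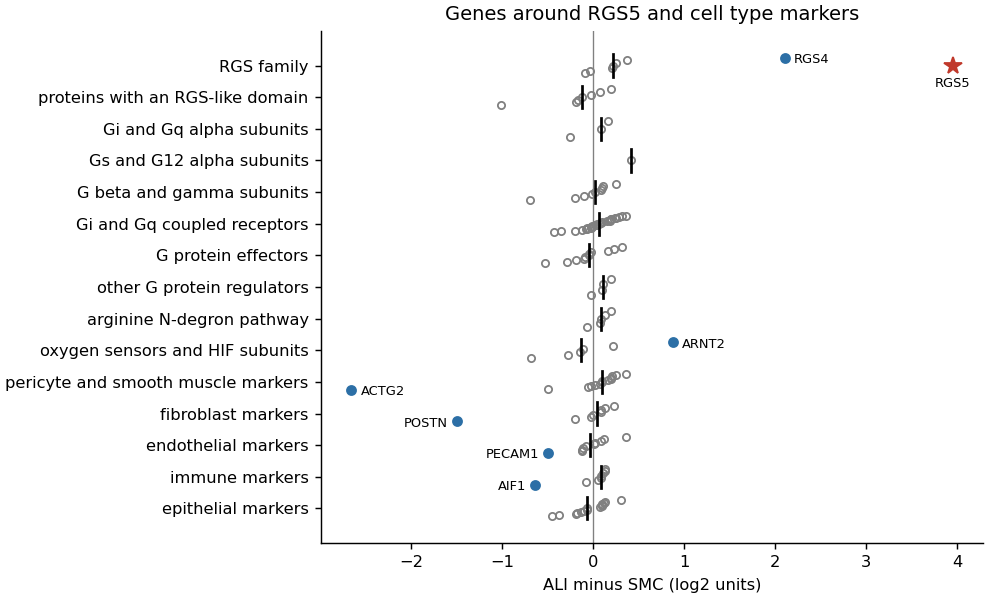
ALI minus SMC difference (x axis, log2 units) of the measured genes of 15 lists (y axis), 1 point per gene. Blue points passed the limma adjusted p of 0.05, open circles did not, black bars are list medians over genes other than RGS5, and the star is RGS5, given no test. RGS5 at 3.95 and RGS4 at 2.11 lie to the right of every other point shown, and ACTG2 at -2.66 lies farthest to the left.

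RGS5 is used as a marker of pericytes, and so the markers of that and other cell types were set beside it. Of 23 pericyte and smooth muscle markers, 14 were measured, 0 were higher by the adjusted p and 1 was lower, beside 1.01% and 1.51% of all other genes. The median difference of the 14 was 0.10, and at an unadjusted p under 0.05 limma counted 0 higher and 1 lower. MCAM, CNN1, VTN and ANGPT1 lay in the lowest 25% of the values on all 6 arrays. PDGFRB, a receptor used as a pericyte marker, measured 7.56, 7.34 and 7.76 in ALI and 7.45, 8.10 and 8.60 in SMC cells, with a difference of -0.50 ± 0.26 (SE, limma adjusted p = 0.441). Another PDGFRB probe set, with means of 7.28 in ALI and 7.23 in SMC cells, gave 0.05 ± 0.12 (SE, limma adjusted p = 0.900). The exception was ACTG2, the smooth muscle gamma actin, which measured 5.67, 5.43 and 6.44 in ALI and 8.41, 7.81 and 9.30 in SMC cells. ACTG2 decreased by 2.66 ± 0.38 (SE, n = 3 each, limma adjusted p = 0.0158, or 0.081 without the ALI array of passage P109). Its second probe set gave 0.68 ± 0.43 (SE), in the other direction. The summed linear level of the 14 markers ranged from 5740 to 12100 over the ALI arrays and from 6870 to 7950 over the SMC arrays. CALD1, at 12.15 to 13.21, and TAGLN are the brightest of the list and set most of this sum. The sum of the other 12 ranged from 558 to 669 in ALI and from 840 to 1340 in SMC cells, so it was lower in ALI cells on every array. In SMC cells ACTG2 and PDGFRB are the brightest of these 12 and set most of their sum.

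Several epithelial markers were strong in both culture types by their brightest probe sets: EPCAM, CDH1, KRT8, KRT18, KRT19, CLDN4, CLDN7, ELF3 and OCLN. EPCAM, the epithelial cell adhesion molecule, was at 13.34 to 13.44 in ALI and 13.30 to 13.35 in SMC cells. KRT8, an intermediate filament protein of simple epithelia, was at 13.59 to 13.75 and 13.44 to 13.61. Of 15 measured epithelial markers, limma called 0 by the adjusted p and 1 at an unadjusted p under 0.05, and the median difference was -0.07. A second, dimmer probe set of CDH1, the E-cadherin gene, measured 5.98, 6.16 and 5.80 in ALI and 6.71, 7.00 and 6.56 in SMC cells and was called lower, with a difference of -0.78 ± 0.15 (SE, limma adjusted p = 0.0412). It lost the call without the ALI array of passage P109 (0.147), P111 (0.0561) or P113 (0.081) and without the SMC array of passage P109 (0.103) or P111 (0.157). The brightest CDH1 probe set, at 12.72 to 12.97 over all arrays, gave -0.10 ± 0.11 (SE, limma adjusted p = 0.733). Of the genes by their brightest probe sets, the 2 farthest from 0 were VIL1, the actin bundler of microvilli, at -0.45 ± 0.19, and CLDN7, a tight junction claudin, at -0.38 ± 0.24 (SE, limma adjusted p = 0.332 and 0.532). FABP2, a defining gene of mature enterocytes, and TJP1 lay in the lowest 25% on all 6 arrays. CLDN3, ANPEP and DPP4 lay below the array medians, with means of 6.24, 5.27 and 4.24 in ALI and 6.11, 5.34 and 4.14 in SMC cells.

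The fibroblast, endothelial and immune lists had 1 called gene each, in every case lower in ALI cells and thus opposite to RGS5. Of all genes other than RGS5, 1.51% were called lower. POSTN, an extracellular matrix protein, measured 7.24, 6.73 and 7.06 in ALI and 7.91, 8.42 and 9.20 in SMC cells, with a difference of -1.50 ± 0.30. PECAM1, an endothelial adhesion protein, differed by -0.50 ± 0.10, and AIF1, a macrophage protein, measured 10.61, 10.53 and 10.38 against 11.16, 11.18 and 11.09, a difference of -0.64 ± 0.10 (SE, limma adjusted p = 0.0485, 0.0448 and 0.0248 for the 3 genes). PECAM1 lost the call without any one of the 6 arrays (0.0792 to 0.149). POSTN lost it without the ALI array of passage P109 (0.124), P111 (0.125) or P113 (0.0844) and without the SMC array of passage P111 (0.18). AIF1 lost it without the ALI array of passage P109 (0.079) or P111 (0.0638) and without the SMC array of passage P109 (0.0802), P111 (0.123) or P113 (0.0551). In the lowest 25% on all 6 arrays lay 3 of 8 measured fibroblast markers (DCN, LUM and FAP), 4 of 10 endothelial markers (CDH5, KDR, ERG and ENG) and 2 of 8 immune markers (PTPRC and CD8A), while the others, such as COL1A2, FBLN1, VWF and CD3E, did not. The summed linear level of the fibroblast list was 541 to 644 in ALI and 700 to 1030 in SMC cells, that of the endothelial list 377 to 404 and 417 to 461, and that of the immune list 1510 to 1730 and 2350 to 2480. All 3 sums were lower in ALI cells on every array, and their part in the RGS5 difference was not tested. By the mean over the 6 arrays, POSTN, PECAM1 and AIF1 were the brightest of their lists, so they weigh heavily in these sums. The median differences of the fibroblast, endothelial and immune lists were 0.04, -0.03 and 0.09. Over all 5 marker lists, 0 of 55 measured genes were called higher by limma, and 0 were higher at an unadjusted p under 0.05, beside 1.01% and 7.08% of all genes other than RGS5. In the other direction, 4 of the 55 were called lower and 5 were lower at an unadjusted p under 0.05, beside 1.51% and 8.91%.

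In the RefSeq gene order of Sscrofa11.1, RGS5 lies on chromosome 4, and RGS4 is the gene directly next to it on one side. Of the 10 genes on each side, 6 were measured, and RGS4 was the only one called, beside 1.01% of all other genes called higher and 1.51% lower. RXRG, a retinoid receptor, and NUF2, a kinetochore protein, on the other side differed by -0.05 ± 0.17 and -0.28 ± 0.19 (SE, limma adjusted p = 0.929 and 0.572). HSD17B7, an enzyme of cholesterol synthesis on the side of RGS4, measured 8.77, 8.57 and 8.00 in ALI and 8.29, 7.97 and 7.23 in SMC cells. The groups overlapped, but ALI was higher at each passage, and the difference of 0.61 ± 0.29 (SE) had a limma adjusted p of 0.376 without and 0.0173 with passage as a block. UAP1, an enzyme that makes UDP-N-acetylglucosamine, differed by 0.21 ± 0.14 (SE, limma adjusted p = 0.556), and C4H1orf226, farther out on that side, by -0.17 ± 0.09 (SE, limma adjusted p = 0.466). The other 14 of these 20 genes had no probe set with their symbol and were not analysed here.

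The genes whose values followed RGS5 most closely over the 6 arrays were SOD1, AMPD1, LOC396866, ABHD4 and CALM2, with Pearson correlations of 0.997, 0.992, 0.99, 0.99 and 0.99. These correlations describe 6 arrays that share the contrast between the culture types, which all 5 genes follow. SOD1, the cytosolic superoxide dismutase, measured 11.95, 11.95 and 11.92 in ALI and 11.57, 11.60 and 11.62 in SMC cells, a difference of 0.34 ± 0.09 (SE, limma adjusted p = 0.126). CALM2, a calmodulin gene, measured 12.98, 13.03 and 13.00 against 12.47, 12.54 and 12.50 and rose by 0.50 ± 0.09 (SE, limma adjusted p = 0.0377). That call was lost without any one of the 6 arrays (0.0672 to 0.139). AMPD1, a muscle AMP deaminase, differed by 0.40 ± 0.10 in the lowest 25% of the values on all 6 arrays, and ABHD4, a lipid hydrolase, by 0.44 ± 0.09 (SE, limma adjusted p = 0.0911 and 0.0654, the latter 0.0498 with passage as a block). LOC396866 rose by 1.02 ± 0.12 (SE, limma adjusted p = 0.00716). All 5 had far smaller differences than RGS5, from 0.34 to 1.02, so likeness of pattern did not go with likeness of size. RGS4 had a correlation of 0.905 with RGS5 over the 6 arrays.

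**Figure D5:**
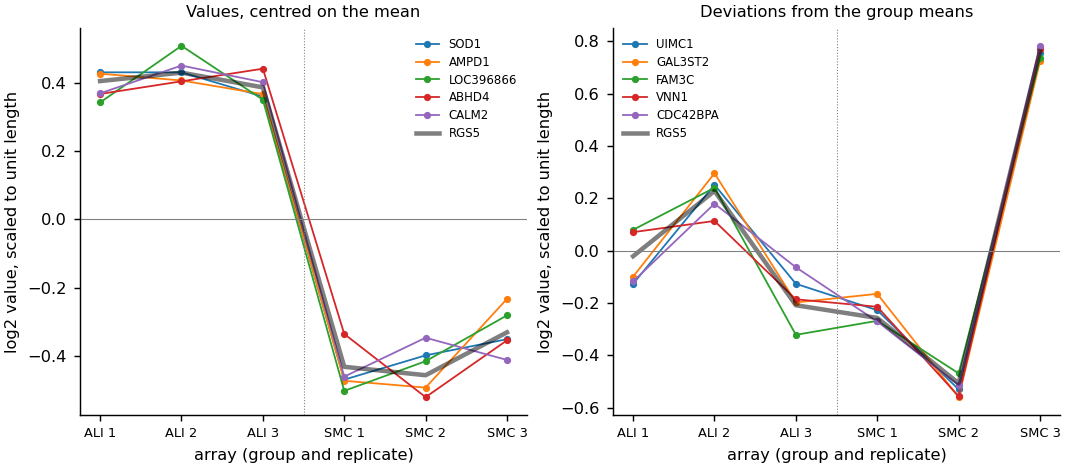
Log2 values centred and scaled to unit length (y axis, no unit) on the 6 arrays (x axis, replicates 1 to 3 at passages P109, P111 and P113) for RGS5 (grey) and the 5 genes most like it over the values (left) and over the deviations from the group means (right). On the left all lines step down from ALI to SMC. On the right they share a peak at the SMC array of passage P113.

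With the culture type taken out, as deviations from the group means, the most alike genes were UIMC1, GAL3ST2, FAM3C, VNN1 and CDC42BPA, with correlations of 0.983 to 0.991 over the 6 arrays. All share with RGS5 a high value on the SMC array of passage P113, where RGS5 itself deviated most. The deviations within a group cancel out, so few of them are free to vary. The genes were also picked as the highest over all genes, so the size of these correlations carries no test. For UIMC1 the likeness rests on small deviations, with an SD of 0.0315 in ALI and 0.0872 in SMC cells. The medians over all probe sets were 0.149 and 0.135. CDC42BPA, a kinase that binds CDC42, measured 8.50, 8.41 and 8.89 in SMC and 8.04, 8.15 and 8.06 in ALI cells, so that its group difference of -0.52 ± 0.14 (SE, limma adjusted p = 0.127) ran against that of RGS5. The deviations of RGS4 correlated with those of RGS5 at -0.142. Both genes were thus higher in ALI cells, while their deviations within the culture types were largest on different arrays, the SMC array of passage P109 for RGS4 and that of passage P113 for RGS5.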

How the data were processed

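The authors purified total RNA and hybridized it to GeneChip Porcine Genome Arrays. Per their methods the arrays were read with Affymetrix GCOS (the submitters' processing notes name version 1.1.1) and normalized by GC-RMA. The deposited table holds log2 values of 24123 probe sets and does not name its normalization. It was used without further scaling, and 124 control probe sets were left out. Symbols came from the platform annotation and were updated through Entrez IDs (9961 of 10069 probe sets with 1 symbol matched). Probe sets with several symbols (198) or none (13732) were not named, and the brightest probe set stood for a gene.

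Culture types were compared over all 23999 probe sets with limma 3.58.1 (lmFit, eBayes; R 4.3.3), with no covariate, and called at a Benjamini-Hochberg adjusted p under 0.05. The fit was checked on simulated data. Arrays have no read depth, and their number limits the precision. Alternatives were quantile normalization, filters on dim probe sets (mean above 4 or 6), an intensity trend, the mean over the probe sets of a gene, passage as a block, the methods' t-test and leaving out each array. Each passage in the labels holds 1 array per culture type. Subtracting the group means left correlations across probe sets of 0.34, 0.14 and 0.451 within the passages, so the passages were taken to pair the arrays. Between unlike passages the correlations ran from -0.424 to 0.219. The highest, of ALI at passage P111 with SMC at passage P109, exceeded that within passage P111, so the pairing is weakest there. The deviations of a group sum to 0, so these correlations are not independent. As the methods name no covariate, the values given are those without the block unless the block is named, and the blocked value is given where it changed a call.

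RGS5 and the gene lists were chosen with earlier results of these data known. Named are RGS5, the measured RGS family, called genes of each list or the 2 farthest from 0, the 5 genes next in order of the difference, called neighbours, and the 5 genes most like RGS5 by each measure. The remaining neighbours, further markers and OPRM1, METAP1, EGLN1 and HIF1A were named after their values were seen.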

Additional observations from a re-analysis of the deposited data

How the results depend on the processing

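The RGS5 difference stayed at 3.83 to 4.13 when single arrays were left out and at 3.95 after quantile normalization, and its rank was 1 or 2. The passage slope of RGS5 ran from -0.029 to 0.111 over the fits without 1 array. The methods' t-test after adjustment called 0 genes of the RGS family, 0 of the 9 lists of G protein, N-degron and oxygen sensing genes, 0 markers and 0 neighbours, against 1 (RGS4), 1 (ARNT2), 4 and 1 (RGS4) by limma. Passage as a block raised the called genes of the 9 lists to 3 (ARNT2 of the oxygen list, GNG12 and GRK5 of the G protein lists) and the called neighbours to 2 (RGS4 and HSD17B7), and it kept RGS4 as the 1 called family member and the same 4 markers. With a mean log2 value above 6, 0 genes of the 9 lists were called, as ARNT2 lies below that level. Quantile normalization and the mean over the probe sets of a gene each left 2 called markers, ACTG2 and AIF1. Without single arrays the called genes numbered 0 to 1 in the RGS family, 0 to 2 in the 9 lists, 0 to 2 among the markers and 0 to 1 among the neighbours. Differences near 0 changed sign when single arrays were left out, with ranges of -0.16 to 0.04 for RGS1, -0.37 to 0.98 for RGS2, -0.19 to 0.05 for RGS10, -0.15 to 0.38 for RIC8B, -0.07 to 0.02 for UIMC1, -0.13 to 0.06 for GAL3ST2 and -0.15 to 0.00 for VNN1. The causes were not tested.

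Of the values computed again for single genes, 512 kept their direction and their side of the threshold, 68 lost and 8 gained a call, and 11 changed sign. By the brightest probe set of each gene, the block changed no other call among the RGS family, the lists and the neighbours than those given. Of 73 further probe sets of listed genes, 2 were called lower without it (HIF1A and CDH1) and 4 with it (also EGLN1 and PRKCZ, the latter at an adjusted p of 0.0385 against 0.0599). ABHD4, one of the genes most like RGS5, passed with the block (adjusted p = 0.0498 against 0.0654 without). RGS5 rests on 1 probe set and on 3 cultures per group of 1 cell line.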
